A study of Mus musculus with 140 samples.

Results

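Chaperones and heat shock proteins were followed through 9 daily courses of mouse embryonic stem cells on Affymetrix MOE430A and MOE430B arrays. Members were the genes whose symbol starts with Hspa, Hspb, Hsp90, Dnaja, Dnajb, Dnajc or Cct followed by a number, together with Hspd1, Hspe1, Hsph1, Tcp1 and Cryab, where a probe set was annotated to that gene alone. Hspbp1 and Hspbap1 were left out, and the probe set with the highest mean signal stood for each gene. This gave 81 members of 18193 genes, 66 of them on A and 15 on B. A signal above the table median on at least 3 of the 70 arrays was required for a test, and 73 of the 81 members and 14558 of all genes passed. The members were 12 cytosolic proteins of the Hsp70, Hsp110 and Hsp90 families (10 tested), 12 endoplasmic reticulum (ER) proteins (12 tested), 7 mitochondrial proteins (7 tested) and 9 subunits of the CCT ring (8 tested). The others were 8 small heat shock proteins (6 tested), 12 DNAJ proteins of classes A and B (9 tested), 19 of class C (19 tested) and 2 genes outside these groups, Cct8l1 and Hspb11, both tested.

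Heat shock proteins of the Hsp70 family bind exposed hydrophobic stretches of unfolded proteins and release them in an ATP-driven cycle. DNAJ proteins deliver clients to Hsp70 and start ATP hydrolysis, Hsp110 proteins exchange the nucleotide, and Hsp90 takes over late folding steps of kinases and receptors. The CCT ring folds actin and tubulin inside a closed chamber, Hspd1 and Hspe1 form the corresponding chamber of mitochondria, and small heat shock proteins hold unfolded proteins without ATP. Genes of the cytosolic set are induced by heat shock factors, and genes of the ER set by the unfolded protein response.

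The cells were CCE, a male embryonic stem cell line of strain 129/Sv. The empty H1P vector, or the vector with an shRNA against Nanog, Oct4, Sox2, Esrrb, Tbx3, Tcl1 or Mm343880, was transduced, and cells stayed in LIF, which maintains self-renewal, at 1000 units per ml. GFP-positive cells were sorted each day, with day 0 at 48 hours after transduction. In the ninth course cells were kept in 5 micromolar retinoic acid, a differentiating agent, without LIF, and the labels name neither vector nor sort for it. What retinoic acid, LIF withdrawal, vector and sort each contribute to a difference between that course and the empty vector cannot be told apart. Samples covered days 0 to 7 in 7 courses and days 0 to 6 in the Mm343880 and retinoic acid courses. There was 1 sample per course and day and no replicate transduction, so neighbouring days stood in for replicates and p-values measure the spread between days, not between cultures.

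The promoter sequences of 5 members are shown because they hold the letters of known stress elements, 2 of cytosolic and 3 of ER members. RefSeq's table (GRCm38.p6) held a window around the start of 66 of the 81 members. In the 150 bases before the start of Hspa1a (chr17:34972157-34972306, minus strand) and Hspa1b (chr17:34959239-34959388, minus strand) the capitals mark GAANNTTC, a pair of heat shock element units. The windows of these near-identical genes, 300 bases each, were equal at 296 bases.
Hspa1a: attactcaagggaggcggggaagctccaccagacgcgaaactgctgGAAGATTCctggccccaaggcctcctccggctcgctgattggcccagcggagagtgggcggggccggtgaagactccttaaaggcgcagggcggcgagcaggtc
Hspa1b: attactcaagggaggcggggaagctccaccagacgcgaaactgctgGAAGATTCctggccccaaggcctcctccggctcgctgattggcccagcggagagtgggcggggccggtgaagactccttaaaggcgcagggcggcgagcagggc
In Hspa5 (chr2:34771940-34772089, plus strand), Hsp90b1 (chr10:86705445-86705694, minus strand) and Dnajc3 (chr14:118937782-118937931, plus strand) the capitals mark CCAAT followed after 9 bases by CCACG, the letters of the ER stress element. The other capital run of Hsp90b1 holds the motif on the opposite strand.
Hspa5: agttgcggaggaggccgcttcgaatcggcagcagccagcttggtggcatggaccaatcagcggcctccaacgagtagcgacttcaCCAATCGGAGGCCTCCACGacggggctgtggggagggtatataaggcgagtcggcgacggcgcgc
Hsp90b1: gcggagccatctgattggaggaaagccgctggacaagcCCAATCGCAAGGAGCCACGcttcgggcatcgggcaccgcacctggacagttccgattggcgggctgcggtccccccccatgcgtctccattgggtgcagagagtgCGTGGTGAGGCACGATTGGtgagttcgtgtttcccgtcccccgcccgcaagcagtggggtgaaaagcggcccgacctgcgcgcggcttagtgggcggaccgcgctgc
Dnajc3: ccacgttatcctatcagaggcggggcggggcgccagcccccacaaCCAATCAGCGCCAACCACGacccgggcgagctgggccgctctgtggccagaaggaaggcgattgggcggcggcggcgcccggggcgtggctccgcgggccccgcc
Both strands were searched, in all windows of a gene. The ER stress element was found in these 3 of 66 members (4.55%) and in 0.137% of 27025 genes with a window, while CCAAT alone was found in 29 members (43.9%) and in 41.1% of genes. GAANNTTC was found in 16 members (24.2% against 9.04% of genes) and TTCNNGAA in 8 (12.1% against 9.60%). Both sharing a unit, which makes 3 units in a row, occurred in 4 members (6.06% against 0.662%), namely Dnajb6, Hspd1, Hspe1 and Hsph1. Hspd1 and Hspe1 are neighbours whose windows overlap. A match describes these letters only.

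All arrays carried the authors' scaling, and the median signal of an array lay between 236 and 383 for A and between 64.5 and 128.5 for B, with medians of 352 and 114 in the retinoic acid course against 279 and 89.2 in the empty vector course. Each shRNA target stayed below its empty vector level through all 8 days, by 3.63-fold (Tcl1) to 11.2-fold (Esrrb), with the target of the Mm343880 shRNA not analysed here. Of 8 embryonic stem cell markers, the late level fell for 7 in the Nanog course, 8 each in the Oct4, Sox2 and retinoic acid courses, and 2 to 4 in the other courses. The list holds Nanog, Pou5f1 (Oct4), Sox2 and Esrrb, so the fall of the shRNA target itself is part of the count in these courses. Of 8 trophectoderm markers, 8 rose in the Nanog and Oct4 courses, 7 in the Sox2 course, 6 in the Esrrb course, and 4 to 5 in the Tbx3, Tcl1, Mm343880 and retinoic acid courses, with 2 lower under retinoic acid. In the Mm343880 course 1 was lower. Their summed signal was 3597 to 6901 on days 4 to 6 with the empty vector, 38537 to 87273 in the Nanog course, 52311 to 64777 in the Oct4 course and 55539 to 71438 in the Sox2 course. Krt8 and Krt18 had the highest means of the list in every course, at 21530 and 28335 in the Nanog course. In the Tbx3 course the means of Krt7, Krt8, Krt18 and Krt19 were 1358, 6790, 9141 and 3212. With the empty vector they were 170, 1563, 1527 and 333. Cdx2, Eomes, Hand1 and Gata3 were at 104, 361, 714 and 30.5 in the Tbx3 course and 122, 398, 628 and 22.8 with the empty vector. The summed fibroblast markers reached 17844 to 24422 with retinoic acid against 1646 to 1854. Of 7 tested, 6 rose and 1 fell there, with the highest means for Col1a2 and Col3a1 (7305 and 8306). The sum was also above that of the empty vector in the Sox2 course (2462 to 4699, 3 higher and 1 lower). The same held for the Esrrb course (4449.6 to 4989, 3 higher and 1 lower). It was also above in the Tbx3 course (2102 to 6200.5, 2 higher and 1 lower) and the Mm343880 course (2193 to 2718, 1 higher). In the Nanog course 1 fibroblast marker rose and 1 fell, and 1 fell in each of the Oct4 and Tcl1 courses. Thy1 was at 311 with retinoic acid and 221 to 427 in the shRNA courses, against 595 with the empty vector. Of 6 tested extraembryonic endoderm markers, 4 rose in the Nanog course, 1 each in the Sox2 and Mm343880 courses and 3 with retinoic acid. In each of the Esrrb and Tbx3 courses 1 fell. The sum was 9893 to 12203 with retinoic acid against 1772 to 1919.5. Gata6 and Dab2 had means of 5441 and 3276 with retinoic acid, while Sox17 and Sox7 were at 194 and 128. With the empty vector these means were 309, 480, 248 and 134. The neural sum stayed between 1312 and 2398 in all courses, with Neurog2 at means of 12.7 to 56.1. Of 4 tested neural markers 2 rose and 1 fell with retinoic acid, and 2 fell in each of the Oct4 and Sox2 courses. In the Nanog, Esrrb and Tcl1 courses 1 fell, and in the Mm343880 course 1 rose and 1 fell. With retinoic acid the means of Pax6, Nes and Tubb3 were 636, 985 and 218, against 273, 650 and 1126.5 with the empty vector. The part of these cell types in the differences of the members was not tested.

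The first question was which members had a late level that differed from the empty vector. The late level is the mean over days 4, 5 and 6 of a curve fitted to log2 signals in each course, and a member rose or fell where limma's moderated test gave a Benjamini-Hochberg adjusted p under 0.05 over all 14558 genes. In the Nanog course 17 of 73 members rose and 5 fell, against 12.0% and 10.0% of all genes tested. In the Oct4 course 8 rose and 7 fell (6.66% and 10.7% of all genes), and in the Sox2 course 13 rose and 11 fell (12.1% and 12.2%). Fewer were called in the Esrrb course, with 5 higher and 1 lower (7.44% and 5.30%), the Tbx3 course, with 5 and 3 (6.24% and 5.69%), and the Tcl1 course, with 7 and 2 (5.05% and 4.05%). The Mm343880 course had 12 higher and 5 lower (7.55% and 7.19%). With retinoic acid 25 rose and 21 fell, against 27.5% and 23.5% of all genes. Rises were thus a larger share of the members than of all genes in every course but Esrrb, though by under 1 percentage point in the Tbx3 course, and falls a larger share in the Sox2 and retinoic acid courses. After quantile normalization all genes split into 3210 higher and 4839 lower with retinoic acid, against 4002 and 3428 as scaled by the authors, and the members into 23 and 23. The larger share of falls was then gone in both courses, with 7 of 73 members lower in the Sox2 course against 13.3% of all genes, and 23 with retinoic acid against 33.2%. The median late difference of the members, on the log2 scale, was 0.12 in the Nanog course against 0.04 over all genes, -0.13 against -0.10 in the Oct4 course and -0.10 against 0.04 with retinoic acid. In the other courses the members' median lay between -0.02 and 0.10. All 8 comparisons share the empty vector samples. Without day 5, 8 members were called in the Oct4 course, 7 of them among the 15 called with all days. In the Tbx3 course 2 were called, 1 of them among the 8 called with all days, and in the Tcl1 course 5, all among the 9. Leaving out day 6, the last day of both shorter courses, left 3 in the Mm343880 course, 21 with retinoic acid and 5 in the Tbx3 course.

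**Figure D1:**
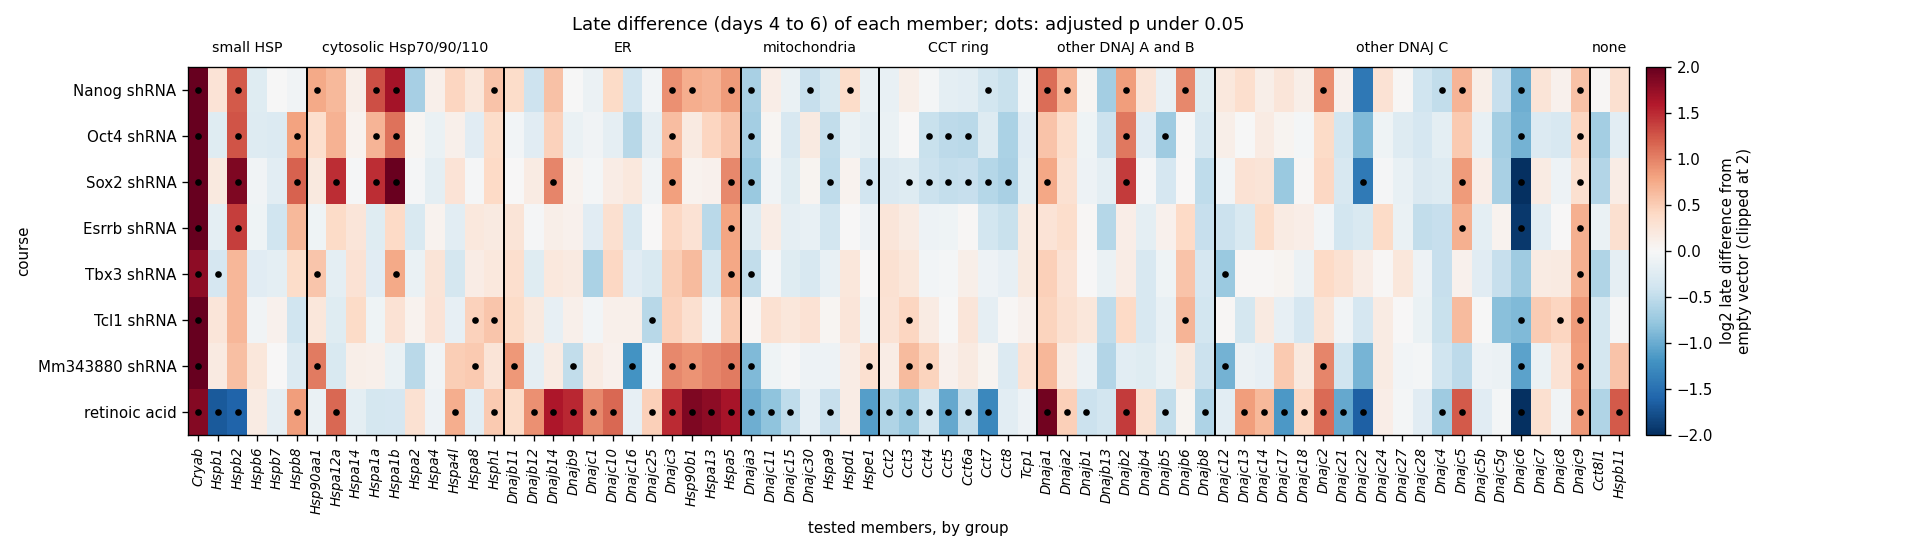
Late difference of each of the 73 tested members (columns, by group) from the empty vector in 8 courses (rows). Colour is the log2 difference of the levels over days 4 to 6, clipped at 2, and a dot marks an adjusted p under 0.05. Cryab and Dnajc9 carry a dot in every row, most of the ER group is red with retinoic acid, and the CCT ring is blue in the Oct4, Sox2 and retinoic acid rows. After quantile normalization between arrays the CCT ring had 1 rise and 3 falls with retinoic acid.

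Over the 7 shRNA courses 42 members were called in at least 1 course and 31 in none, and 15 of the 31 were not called with retinoic acid either. Cryab and Dnajc9 rose in all 7 courses. Dnajc6 fell in 6, and Dnaja3 fell and Hspa5 rose in 5. Such counts over courses were not made for all genes, so they do not show whether members were called more often than other genes. The 7 comparisons also share the empty vector samples. Cct3, Cct4 and Hspe1, which were named after their values were seen for this pattern, rose in at least 1 shRNA course and fell in another. The tests of the shRNA courses against each other, without the empty vector, found late levels that differed for 41 of the 73 members, against 44.7% of all genes.

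The small heat shock protein group held the member with the largest rise in each of the 7 shRNA courses. Cryab, the alpha B-crystallin, rose in all 7 shRNA courses and with retinoic acid. Hspb2, its direct neighbour in the genome and a partner of Hspb3 in muscle, rose in 4 shRNA courses and fell with retinoic acid. Hspb8, which works with Bag3 in selective autophagy, rose in the Oct4, Sox2 and retinoic acid courses, and Hspb1, known as Hsp25, fell with retinoic acid and in the Tbx3 course. Hspb6 and Hspb7 were called in none of the 8 comparisons. In bulk samples such as these, fewer cells with a transcript and less of it per cell cannot be told apart.

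The Cryab signal was 25.1, 10.9, 8.90, 10.6, 11.2, 56.0, 60.2 and 49.3 from day 0 to day 7 with the empty vector. It was 104, 536, 1036, 1577, 1903, 2037, 1539 and 1291 in the Sox2 course and 36.0, 27.7, 17.3, 127, 492, 1160.1, 1113 and 1876 in the Esrrb course. The Sox2 course was above the empty vector on every day and at over 1000 from day 2, whereas the Esrrb and Tbx3 courses stayed at the early level until day 2 and day 4. In the Tbx3 course the series was 18.2, 33.5, 11.4, 6.80, 44.5, 487, 819 and 817. With retinoic acid Cryab was 44.6, 18.0, 377, 842, 458, 212 and 221, which was highest on day 3. The late log2 difference was 4.17 ± 0.39 (SE) in the Sox2 course, 18-fold on the log2(signal + 63.1) scale, with an adjusted p of 1.6e-11. It was 3.22 ± 0.39 in the Esrrb course, 2.78 ± 0.39 in the Oct4 course, 2.68 ± 0.39 in the Nanog course, 2.61 ± 0.39 in the Tcl1 course and 2.58 ± 0.39 in the Mm343880 course, with adjusted p-values of at most 7.3e-06. The smallest values were 1.79 ± 0.39 (adjusted p = 0.0012) in the Tbx3 course and 1.84 ± 0.39 (adjusted p = 8.9e-05) with retinoic acid. The other tested probe set of Cryab was called higher in the same 8 comparisons. Without day 5 the Tbx3 call was lost (adjusted p = 0.095), and without day 6 that of retinoic acid (log2 0.74, adjusted p = 0.52).

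Hspb2 was 1233, 624 and 995 on days 4, 5 and 6 with the empty vector. It was 3986, 3568 and 2421 in the Sox2 course, 2192, 2091 and 2743 in the Esrrb course, 2231, 2164 and 2116 in the Oct4 course and 2234, 2519 and 1408 in the Nanog course. All of these values were above the 3 of the empty vector. The log2 differences were 1.86 ± 0.23, 1.38 ± 0.23, 1.26 ± 0.23 and 1.22 ± 0.23 in that order, with adjusted p-values between 2.3e-08 and 8.1e-05. In the Tbx3, Tcl1 and Mm343880 courses the values were 0.66, 0.67 and 0.60, with adjusted p-values of 0.053, 0.06 and 0.072. With retinoic acid Hspb2 was 231, 252 and 215 on these days, below the empty vector on 7 of 7 days, and the difference was -1.60 ± 0.23 (adjusted p = 1.2e-07). In that course Cryab was high and Hspb2 low on the same arrays. Without day 5 the Nanog call of Hspb2 was lost (adjusted p = 0.13).

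Hspb8 rose to 3169, 2532 and 1670.5 on days 4, 5 and 6 of the Sox2 course and 2114, 2008 and 1727 of the Oct4 course, against 1249, 899 and 1165 with the empty vector. With retinoic acid it started low and was 338, 370.4, 535, 2186, 1954, 1882 and 1699 from day 0 to day 6. The late differences were 1.18 ± 0.23 (adjusted p = 8.1e-05), 0.80 ± 0.23 (adjusted p = 0.0093) and 0.83 ± 0.23 (adjusted p = 0.0022). Within the retinoic acid course the rise from days 0 and 1 was larger, at 2.26 ± 0.26 (adjusted p = 1.1e-09), and days 0 and 1 of the course lay below the empty vector. The Oct4 call was lost when the probe sets of the gene were averaged (adjusted p = 0.069) and without day 5 (0.21), and the retinoic acid call without day 6 (log2 0.09). Hspb1 was 30717, 31221 and 33442 with the empty vector and 11211, 8094 and 9395 with retinoic acid, so that all 3 late values lay below. Its difference there was -1.68 ± 0.11 (adjusted p = 1.8e-16), 3.2-fold lower, and -0.34 ± 0.11 (adjusted p = 0.043) in the Tbx3 course, where the call was lost under several settings, such as without the spline (adjusted p = 0.13). In the other 6 shRNA courses the Hspb1 difference lay between -0.24 and 0.28 and did not pass.

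**Figure D2:**
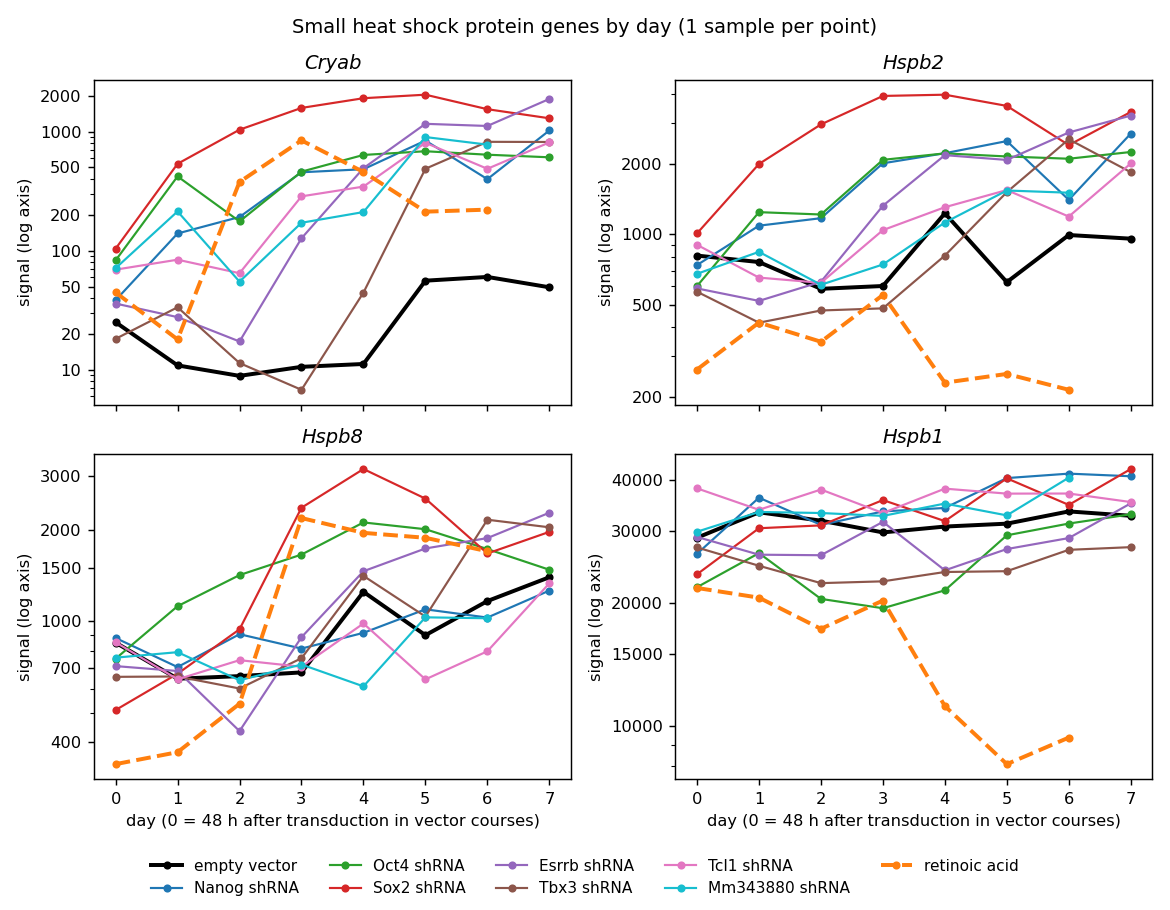
Signal (log axis) of Cryab, Hspb2, Hspb8 and Hspb1 by day in the 9 courses, 1 sample per point, with the empty vector in black and retinoic acid dashed. Cryab rises from under 110 on day 0 to between 212.5 and 2037 on day 5 in every course but the empty vector, where it stays at 60.2 or below. Hspb2 and Hspb1 drop with retinoic acid to 215 and 8094.

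Among the 10 tested cytosolic Hsp70, Hsp110 and Hsp90 members, 4 rose in the Nanog course, 3 in the Sox2 course, 2 each in the Oct4, Tbx3, Tcl1 and Mm343880 courses and 3 with retinoic acid, and none fell in these 8 comparisons by limma (1, in the Nanog course, at an unadjusted p under 0.05). After quantile normalization 1 of them fell in the Nanog course and 2 with retinoic acid. As scaled by the authors, 12.0% of all genes rose in the Nanog course, 12.1% in the Sox2 course and 27.5% with retinoic acid. The last is near the 3 of 10 members. In the Oct4, Tbx3, Tcl1 and Mm343880 courses 6.66%, 6.24%, 5.05% and 7.55% of all genes rose. The stress-inducible genes Hspa1a and Hspa1b rose in the Nanog, Oct4 and Sox2 courses. Their transcripts are nearly identical, so a signal cannot be assigned with certainty to either gene. The constitutive Hspa8 rose in the Tcl1 and Mm343880 courses, Hsp90aa1 in the Nanog, Tbx3 and Mm343880 courses, and Hsph1, an Hsp110 protein, in the Nanog, Tcl1 and retinoic acid courses. Hspa12a, a distant relative of Hsp70, rose in the Sox2 course by 1.48 ± 0.43 (adjusted p = 0.0078) and with retinoic acid by 1.15 ± 0.43 (adjusted p = 0.022), the first lost without day 5 (adjusted p = 0.33).

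Hspa1b was 629.9, 441 and 189.5 on days 4, 5 and 6 with the empty vector. It was 1039, 1098 and 2719 in the Nanog course, 996, 866 and 939 in the Oct4 course and 1634, 1676 and 2063 in the Sox2 course. Each of these 9 values was above the highest of the empty vector. In the Esrrb, Tcl1 and Mm343880 courses the 3 values were 397, 437 and 882, then 343, 459 and 680.2, then 268, 379 and 426, and overlapped those of the empty vector. The late difference was 1.97 ± 0.23 (adjusted p = 5.9e-09) in the Sox2 course, 1.67 ± 0.23 (adjusted p = 3.8e-07) in the Nanog course and 1.08 ± 0.23 (adjusted p = 0.00051) in the Oct4 course. Hspa1b was also called in the Tbx3 course, at 0.76 ± 0.23 (adjusted p = 0.024), a call lost without day 5 or day 6 (adjusted p = 0.29 and 0.18).

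Hspa1a moved in the same courses. It was 126, 154 and 168 with the empty vector, 259, 387 and 798 in the Nanog course, 223, 269 and 288 in the Oct4 course and 504, 462 and 569 in the Sox2 course on days 4, 5 and 6, with no overlap with the empty vector. The differences were 1.29 ± 0.24 (adjusted p = 8.2e-05), 0.68 ± 0.24 (adjusted p = 0.044) and 1.47 ± 0.24 (adjusted p = 7.3e-06). The Oct4 call was lost on leaving out any 1 day, with adjusted p-values from 0.051 to 0.24. In the direct contrast of the mean late level of the Nanog, Oct4 and Sox2 courses with that of the Esrrb, Tbx3 and Tcl1 courses, Hspa1a was higher by 1.34 ± 0.14 (adjusted p = 2.6e-10) and Hspa1b by 1.09 ± 0.13 (adjusted p = 9.6e-09). With retinoic acid neither passed against the empty vector, but Hspa1b fell within the course, at -1.07 ± 0.26 (adjusted p = 0.00096), from 764 and 582 on days 0 and 1 to 328, 312 and 235. Hspa1l, the neighbour of Hspa1a, did not reach the level for a test, with signals of 5.0 to 23.9.

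Hsp90aa1 encodes the inducible cytosolic Hsp90. Its values on days 4, 5 and 6 were 24116, 25603 and 18803 in the Mm343880 course, 15524, 24371 and 16705 in the Nanog course and 12631, 10392 and 11343 with the empty vector. The differences were 1.04 ± 0.18 (adjusted p = 7.3e-05) and 0.76 ± 0.18 (adjusted p = 0.0018), with 0.55 ± 0.18 (adjusted p = 0.041) in the Tbx3 course. The first was lost without day 6 (adjusted p = 0.21), the second and the Tbx3 call without day 5 (0.24 and 0.49). Hspa8 was 38498, 27853 and 31935 in the Tcl1 course and 32213, 30705 and 36021 in the Mm343880 course, against 24341, 23703 and 21632. Its differences of 0.46 ± 0.13 (adjusted p = 0.013) and 0.53 ± 0.13 (adjusted p = 0.003) were both lost after quantile normalization (adjusted p = 0.064 and 0.67). Hsph1 rose by 0.57 ± 0.18 (adjusted p = 0.017) in the Nanog course, 0.56 ± 0.18 (adjusted p = 0.041) in the Tcl1 course and 0.53 ± 0.18 (adjusted p = 0.013) with retinoic acid, and each of these calls was lost without day 6 (adjusted p of 0.25, 0.16 and 0.3). Hspa2, the testis-enriched Hsp70, was called in none of the 8 comparisons.

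**Figure D3:**
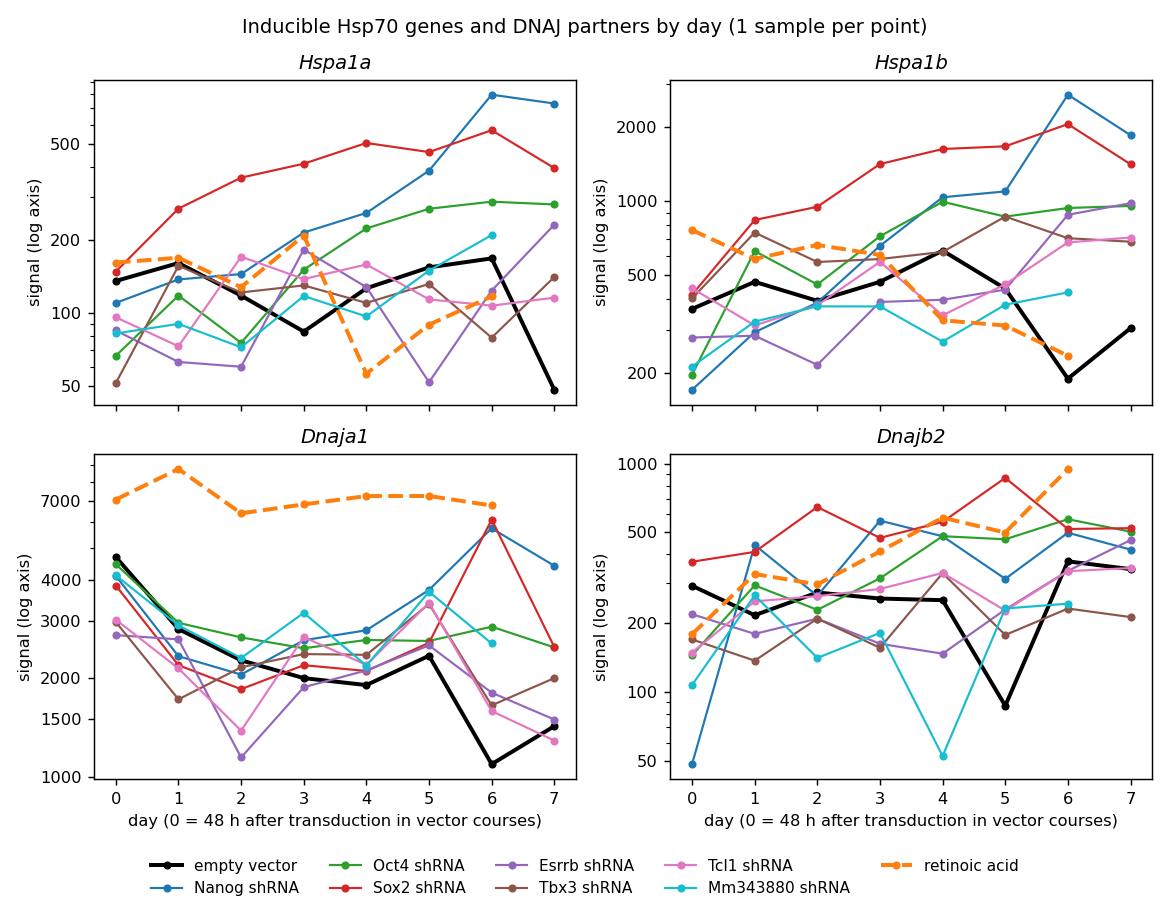
Signal (log axis) of Hspa1a, Hspa1b and the DNAJ genes Dnaja1 and Dnajb2 by day in the 9 courses, 1 sample per point. On day 6 the Nanog, Oct4 and Sox2 courses are the highest in both Hspa1 panels, with the Nanog course at 798 for Hspa1a and 2719 for Hspa1b. Dnaja1 lies between 6397 and 8738 throughout the retinoic acid course.

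ER chaperones were the group with the most rises under retinoic acid, where 10 of the 12 rose (27.5% of all genes) and none fell by limma (10 and 0 also at an unadjusted p under 0.05), with a median log2 difference of 1.32 against 0.04 over all genes. After quantile normalization 8 rose and none fell. Hspa5, the ER Hsp70 known as BiP, Hsp90b1, the ER Hsp90 known as Grp94, and Dnajc3, a DNAJ partner of Hspa5 known as p58IPK, were among them, as were Dnajb9 and Hspa13. These first 3 are the genes with the ER stress element letters printed above. In the shRNA courses Hspa5 rose in 5 and Dnajc3 in 4, while the group as a whole had 3 rises each in the Nanog and Sox2 courses, 4 rises and 2 falls in the Mm343880 course, 1 rise each in the Oct4, Esrrb and Tbx3 courses and 1 fall in the Tcl1 course. Shares of all genes that rose were 12.0% (Nanog), 12.1% (Sox2), 7.55% (Mm343880), 6.66% (Oct4), 7.44% (Esrrb) and 6.24% (Tbx3). For 12 members, 1 rise was near the last 3 shares. Of all genes 7.19% fell in the Mm343880 course and 4.05% in the Tcl1 course. The fall in the Tcl1 course was Dnajc25 (-0.55 ± 0.17, adjusted p = 0.039), lost without day 5 (adjusted p = 0.15). Those in the Mm343880 course were Dnajc16 (-1.20 ± 0.35, adjusted p = 0.015) and Dnajb9 (-0.50 ± 0.16, adjusted p = 0.033), both lost without day 6 (adjusted p of 0.92 and 0.95).

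Hspa5 was 7942, 5305, 4044, 4220.2, 4834, 4699.9, 2807 and 3593 from day 0 to day 7 with the empty vector, a series that began high and declined. It was 8611, 15403, 11197, 12326, 10696, 14314 and 14793 from day 0 to day 6 with retinoic acid, above the empty vector on 7 of 7 days. The late difference was 1.65 ± 0.21 (adjusted p = 6.5e-09), 3.14-fold. In the Mm343880 course it was 1.03 ± 0.21 (adjusted p = 0.00045), in the Sox2 course 0.96 ± 0.21 (adjusted p = 0.00041), in the Nanog course 0.86 ± 0.21 (adjusted p = 0.0018), in the Esrrb course 0.80 ± 0.21 (adjusted p = 0.0064) and in the Tbx3 course 0.77 ± 0.21 (adjusted p = 0.0097). The last 2 calls were lost without day 5 (adjusted p = 0.085 and 0.12). In the Oct4 and Tcl1 courses the values were 0.56 ± 0.21 (adjusted p = 0.054) and 0.52 ± 0.21 (adjusted p = 0.11), and the test among the 7 shRNA courses did not pass (adjusted p = 0.24). None of the 9 courses showed a change of Hspa5 from days 0 and 1 to days 4 to 6 that passed. The change was -0.64 ± 0.23 (adjusted p = 0.2) with the empty vector and between -0.38 and 0.30 in the other courses. The Sox2 sample of day 6, at 11953, was the highest of its course, and without it the call stayed.

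Hsp90b1 was 5537, 7209 and 7492 on days 4, 5 and 6 with retinoic acid against 1909, 1874 and 1573 with the empty vector. On day 0 the signals of these courses were 3308 and 3406. The late difference was 1.86 ± 0.24 (adjusted p = 1.2e-08). In the Nanog and Mm343880 courses it was 0.73 ± 0.24 (adjusted p = 0.024) and 0.90 ± 0.24 (adjusted p = 0.0085), calls that were lost without day 5 (adjusted p = 0.19 and 0.17). Dnajc3 was 518, 938, 1204, 1056, 960.3, 1028 and 1194 from day 0 to day 6 with retinoic acid, where every day lay above the highest value of the empty vector, 439.7. Its late difference was 1.49 ± 0.20 (adjusted p = 1.7e-08), with 0.96 ± 0.20 (adjusted p = 0.0006) in the Mm343880 course, 0.91 ± 0.20 (adjusted p = 0.00048) in the Nanog course, 0.82 ± 0.20 (adjusted p = 0.0014) in the Sox2 course and 0.61 ± 0.20 (adjusted p = 0.023) in the Oct4 course. When the probe sets of Dnajc3 were averaged, the Mm343880, Sox2 and Oct4 calls were lost (adjusted p = 0.059, 0.065 and 0.27).

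Dnajb9, known as ERdj4, rose through the whole retinoic acid course, from 1005, 1276 and 1483 on days 0, 1 and 2 to 2073, 2481 and 3082 on days 4, 5 and 6. With the empty vector the late values were 791, 928 and 872. The late difference was 1.50 ± 0.16 (adjusted p = 1.4e-10) and the change within the course 1.13 ± 0.18 (adjusted p = 2.4e-06). Hspa13 rose by 1.80 ± 0.46 (adjusted p = 0.001), a call lost without day 6 (adjusted p = 0.19), and Dnajb14, a membrane-bound DNAJ protein, by 1.61 ± 0.26 (adjusted p = 1.4e-06).

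**Figure D4:**
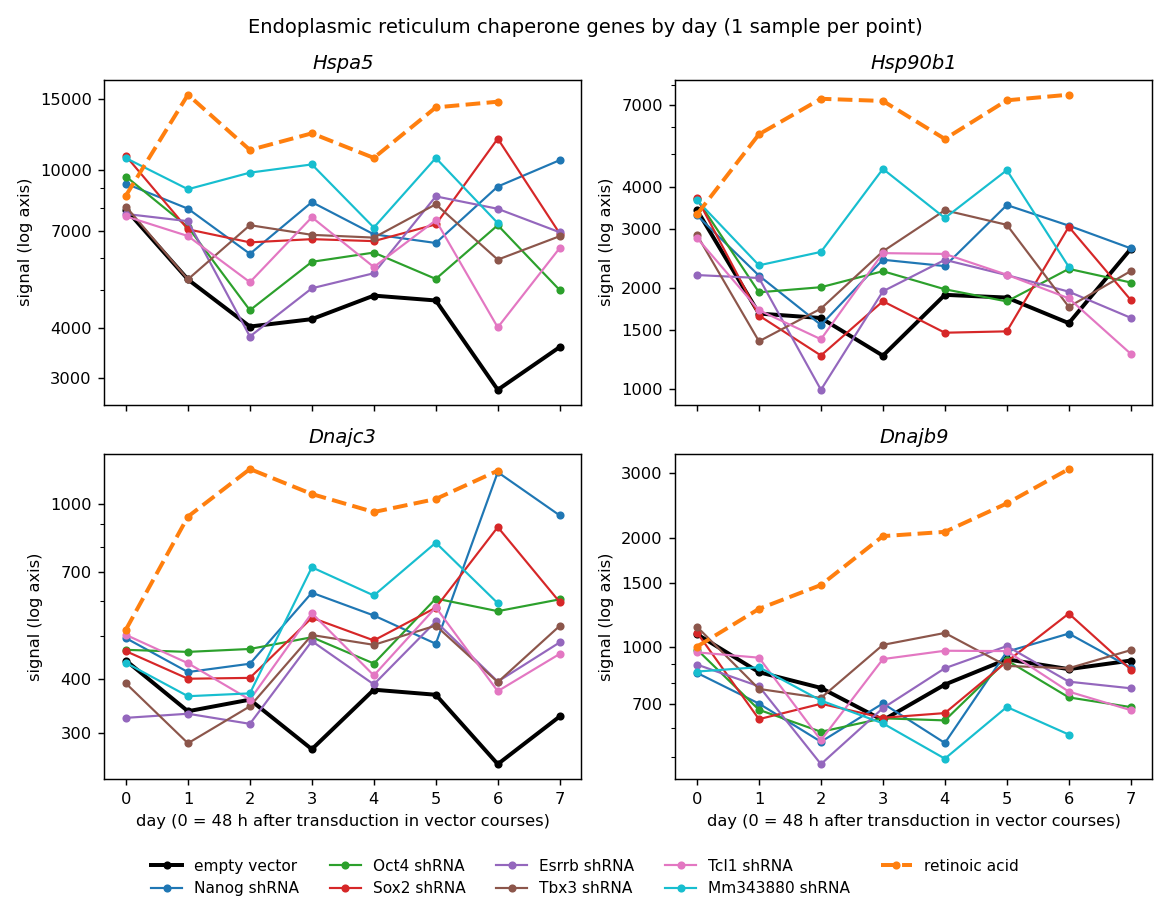
Signal (log axis) of the ER chaperone genes Hspa5, Hsp90b1, Dnajc3 and Dnajb9 by day in the 9 courses, 1 sample per point. The retinoic acid course lies above all others from day 1 in each panel, ending at 14793, 7492, 1194 and 3082 on day 6. The shRNA courses run closer to the empty vector, which ends at 3593, 2613, 328 and 921 on day 7.

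Of the 7 tested mitochondrial members 5 fell with retinoic acid, 3 in the Sox2 course, 2 each in the Nanog and Oct4 courses and 1 each in the Tbx3 and Mm343880 courses, while 1 rose in each of the Nanog and Mm343880 courses. Over all genes 23.5% fell with retinoic acid, 12.2% in the Sox2 course, 10.7% in the Oct4 course and 10.0% in the Nanog course. In the Tbx3 and Mm343880 courses 5.69% and 7.19% of all genes fell. The shares that rose were 12.0% (Nanog) and 7.55% (Mm343880). After quantile normalization 5 mitochondrial members fell and 1 rose with retinoic acid. Then 1 fell in each of the Sox2 and Oct4 courses, and the rise in the Mm343880 course was lost. In the Tcl1 course none was called, and 6 of 7 differences lay above 0, with a median of 0.22. Dnaja3, the mitochondrial DNAJ protein known as Tid1, was called in 5 shRNA courses and with retinoic acid. Hspa9, the mitochondrial Hsp70, fell in the Oct4, Sox2 and retinoic acid courses. Hspe1, the lid of the mitochondrial chamber, fell with retinoic acid and in the Sox2 course, and Hspd1, the chamber itself, rose in the Nanog course by 0.37 ± 0.13 (adjusted p = 0.04), a call lost without day 6 (adjusted p = 0.26).

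Dnaja3 was 1084, 1163 and 841 on days 4, 5 and 6 with the empty vector. It was 579, 446 and 455 with retinoic acid, 548, 533 and 557 in the Mm343880 course and 634, 533 and 619.8 in the Sox2 course. These 9 values were all below those of the empty vector. The differences were -0.98 ± 0.16 (adjusted p = 1.4e-06), -0.88 ± 0.16 (adjusted p = 1.0e-04) and -0.75 ± 0.16 (adjusted p = 0.00032), with -0.68 ± 0.16 (adjusted p = 0.0015) in the Oct4 course, -0.65 ± 0.16 (adjusted p = 0.0021) in the Nanog course and -0.49 ± 0.16 (adjusted p = 0.036) in the Tbx3 course. With the probe sets of the gene averaged, the Nanog, Oct4, Tbx3 and Mm343880 calls were lost, at log2 values of -0.06, -0.25, -0.27 and -0.11. Without day 5 the Oct4 and Tbx3 calls were lost (adjusted p = 0.094 and 0.17), and without day 6 that of Mm343880 (adjusted p = 0.26).

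Hspe1 declined day by day with retinoic acid, at 14979, 12644, 12128, 10172, 9986, 7722 and 6649 from day 0 to day 6. With the empty vector it was between 15087 and 19041 with a median of 16695 over 8 days. The late difference was -1.10 ± 0.11 (adjusted p = 6.1e-12). In the Sox2 course it was -0.38 ± 0.11 (adjusted p = 0.0062) and in the Mm343880 course 0.31 ± 0.11 (adjusted p = 0.038), and neither of these passed after quantile normalization (adjusted p = 0.19 and 0.87). Without day 6 the Mm343880 value was -0.02. Its neighbour Hspd1 was 17925, 18196, 15942, 13321, 15338, 12537 and 12410.4 with retinoic acid and 17892, 14599.7, 13153, 11417, 12747, 14484, 8533 and 9489 with the empty vector, both declining, and the difference did not pass the test, at log2 0.14 ± 0.14 (adjusted p = 0.4). Within the retinoic acid course both fell, with changes of -0.80 ± 0.12 (adjusted p = 4.1e-07) for Hspe1 and -0.44 ± 0.15 (adjusted p = 0.02) for Hspd1. Hspa9 was 4611, 4493 and 3604 with retinoic acid and 6206, 5836 and 5196 with the empty vector on days 4, 5 and 6, a difference of -0.46 ± 0.18 (adjusted p = 0.027) that was lost without day 4, 5 or 6 (adjusted p = 0.13, 0.061 and 0.26). Within that course it fell from 8975 and 8297 on days 0 and 1, with a change of -0.92 ± 0.20 (adjusted p = 0.00023). The calls of Hspa9 in the Oct4 and Sox2 courses, -0.50 ± 0.18 (adjusted p = 0.044) and -0.50 ± 0.18 (adjusted p = 0.03), were lost without day 5 (0.19 and 0.6).

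As scaled by the authors, the subunits of the CCT ring fell together in some courses. Of the 8 tested, 6 fell in the Sox2 course (12.2% of all genes), 6 with retinoic acid (23.5%), 3 in the Oct4 course (10.7%) and 1 in the Nanog course (10.0%), whereas 2 rose in the Mm343880 course (7.55% of all genes) and 1 in the Tcl1 course (5.05%). Their median log2 difference was -0.44 in the Sox2 course, -0.35 in the Oct4 course, -0.54 with retinoic acid and 0.17 in the Mm343880 course, where the median over all genes was -0.03, -0.10, 0.04 and -0.02. Among the falls with retinoic acid was Cct4, at -0.37. Another of its probe sets was called the other way, and with its probe sets averaged the difference was 0.12. The counts also depended on the scaling of the arrays. Quantile normalization moved the median of all genes with retinoic acid from 0.04 to -0.21 and left 3 falls and 1 rise there, Tcp1 turning from -0.10 to 0.33. It left 3 falls in the Sox2 course, 2 in the Oct4 course and none in the Nanog course. The median of the ring was then -0.26 in the Sox2 course, -0.25 in the Oct4 course, -0.11 with retinoic acid and -0.04 in the Mm343880 course. Over all genes it was -0.06, -0.04, -0.21 and -0.05 in that order. With retinoic acid the ring thus lay above the median of all genes, and the median rise in the Mm343880 course was gone.

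Cct5 was 19945, 17416 and 20420.4 on days 4, 5 and 6 with the empty vector. It was 11222, 9109 and 8358 with retinoic acid, 13599, 12499 and 13396 in the Oct4 course and 14419.5, 13629 and 12838 in the Sox2 course. None of these values overlapped with the empty vector, and each course was lower on all of its days. The differences were -1.02 ± 0.09 (adjusted p = 8.0e-13), -0.53 ± 0.09 (adjusted p = 2.3e-05) and -0.48 ± 0.09 (adjusted p = 6.4e-05), and in the 5 other courses between -0.20 and 0.08. The Cct5 calls held under all alternatives run, quantile normalization included. Cct7 fell with retinoic acid, at -1.29 ± 0.14 (adjusted p = 5.3e-11), and Cct6a fell, at -0.54 ± 0.09 (adjusted p = 1.6e-05) in the Oct4 course and -0.46 ± 0.09 (adjusted p = 0.00014) in the Sox2 course. Cct3 rose in the Mm343880 course by 0.64 ± 0.10 (adjusted p = 5.1e-06) and in the Tcl1 course by 0.42 ± 0.09 (adjusted p = 0.0021). In the direct contrast of the Nanog, Oct4 and Sox2 courses with the Esrrb, Tbx3 and Tcl1 courses 7 of 8 subunits were lower and none higher (4 lower after quantile normalization), with Cct6a at -0.53 ± 0.05 (adjusted p = 6.3e-11), Cct2 at -0.47 ± 0.07 (adjusted p = 3.2e-07) and Cct5 at -0.36 ± 0.05 (adjusted p = 4.9e-07). Tcp1, the founding subunit, was called in none of the late differences.

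Among the 9 tested DNAJ proteins of classes A and B outside the ER and mitochondria, 4 rose in the Nanog course, 2 in the Sox2 course, 1 each in the Oct4 and Tcl1 courses and 3 with retinoic acid, where 3 fell. Over all genes 12.0%, 12.1%, 6.66%, 5.05% and 27.5% rose in these courses in that order, and 23.5% fell with retinoic acid. For so few members the retinoic acid counts were near those shares. In the Oct4 course, where 10.7% of all genes fell, 1 of these members fell. It was Dnajb5 (-0.71 ± 0.20, adjusted p = 0.0085, lost without day 5 with an adjusted p of 0.59). Dnajb2, a neuron-enriched DNAJ protein, was 252, 87.0 and 373 on days 4, 5 and 6 with the empty vector. It was 555, 866 and 517 in the Sox2 course, 481, 466 and 571 in the Oct4 course, 480.5, 313 and 498 in the Nanog course and 580.0, 499 and 947 with retinoic acid. All but 1 of these values were above the highest of the empty vector. Differences were 1.39 ± 0.29 (adjusted p = 0.00021), 1.06 ± 0.29 (adjusted p = 0.0064), 0.83 ± 0.29 (adjusted p = 0.031) and 1.41 ± 0.29 (adjusted p = 6.1e-05), and the Oct4 call was lost without day 5 (adjusted p = 0.24). In the direct contrast the Nanog, Oct4 and Sox2 courses were higher by 0.87 ± 0.17 (adjusted p = 5.2e-05).

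Dnaja1, a main cytosolic partner of Hspa8, was 7049, 8738, 6397, 6811, 7225, 7226 and 6759 from day 0 to day 6 with retinoic acid and 4701, 2833, 2272, 2005, 1909, 2347, 1094 and 1429.7 from day 0 to day 7 with the empty vector. The retinoic acid course was thus higher already on day 0, and the empty vector course declined. The late difference was 1.93 ± 0.24 (adjusted p = 3.7e-09), with 1.11 ± 0.24 (adjusted p = 0.00045) in the Nanog course and 0.77 ± 0.24 (adjusted p = 0.013) in the Sox2 course. The decline with the empty vector, -1.03 ± 0.27 (adjusted p = 0.047), was the only change of a member that passed within that course. It was lost under most alternatives, such as the table median as pseudocount (adjusted p = 0.05), no filter (0.06), averaged probe sets (0.063), no spline (0.44) and leaving out day 0, 1, 2, 3, 4 or 6 (0.087 to 0.98). With retinoic acid the change was -0.09 ± 0.27 (adjusted p = 0.85). Dnajb6, which prevents aggregation, rose in the Nanog course by 0.96 ± 0.20 (adjusted p = 0.00024). Dnajb1, the classic partner of heat-induced Hsp70, was lower with retinoic acid, at -0.43 ± 0.14 (adjusted p = 0.0083) on its main probe set. Its other probe set was called the other way, at 0.44, and with the probe sets averaged the difference was 0.0068.

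Of the 19 other class C proteins, 6 rose and 5 fell with retinoic acid, close to the shares of all genes (27.5% and 23.5%), and 5 rose and 7 fell there after quantile normalization. No shRNA course had more than 3 rises or 2 falls (4 falls in the Nanog course after quantile normalization). Over all genes 5.05% to 12.1% rose in these courses and 4.05% to 12.2% fell. For 19 members the counts as scaled by the authors were near those shares. Dnajc6, known as auxilin, which strips clathrin from vesicles, was 1403, 915, 864, 582, 1139.9, 917, 1062 and 1500.2 from day 0 to day 7 with the empty vector. It was 312, 185, 142, 218, 107, 99.8, 309 and 332 in the Sox2 course and 886, 215, 177, 108, 77.0, 171 and 141 with retinoic acid up to day 6. The Sox2 course was low from day 0, whereas retinoic acid dropped between day 0 and day 1. Late differences were -2.54 ± 0.25 (adjusted p = 1.3e-10) in the Sox2 course, -2.76 ± 0.26 (adjusted p = 1.9e-12) with retinoic acid and -1.93 ± 0.25 (adjusted p = 2.2e-07) in the Esrrb course. Values in the Nanog, Oct4, Tcl1 and Mm343880 courses were between -1.07 and -0.88 with adjusted p-values between 0.0028 and 0.021, and the Tbx3 value was -0.71 ± 0.25 (adjusted p = 0.06). Those of Oct4, Tcl1 and Mm343880 were lost on leaving out 1 day, with adjusted p-values up to 0.35, and that of Nanog without the spline (adjusted p = 0.052).

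Dnajc9, a histone chaperone with a DNAJ domain, was 2595, 2628, 2787, 2334, 2164, 1966, 1508 and 1484 from day 0 to day 7 with the empty vector. In the Tcl1 course it was 3768, 3209, 3802, 4003, 3506, 3518, 2990.0 and 3001 and in the Sox2 course 3306, 2832, 2724, 2809.6, 2366, 1954, 2957 and 1982. The empty vector declined while the Tcl1 course held its level. The late differences ran from 0.32 ± 0.12 (adjusted p = 0.049) in the Sox2 course to 0.85 ± 0.12 (adjusted p = 6.0e-06) in the Tcl1 course and 0.87 ± 0.12 (adjusted p = 7.5e-08) with retinoic acid. No course showed a change of Dnajc9 within the course that passed, with values between -0.48 for the empty vector and 0.16 for retinoic acid. Dnajc2, a ribosome-bound chaperone, rose with retinoic acid by 1.13 ± 0.26 (adjusted p = 0.00027), and Dnajc5, the cysteine string protein of secretory vesicles, by 1.23 ± 0.23 (adjusted p = 1.1e-05). Hspb11, which lies outside the groups, rose with retinoic acid by 1.22 ± 0.23 (adjusted p = 1.5e-05).

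**Figure D5:**
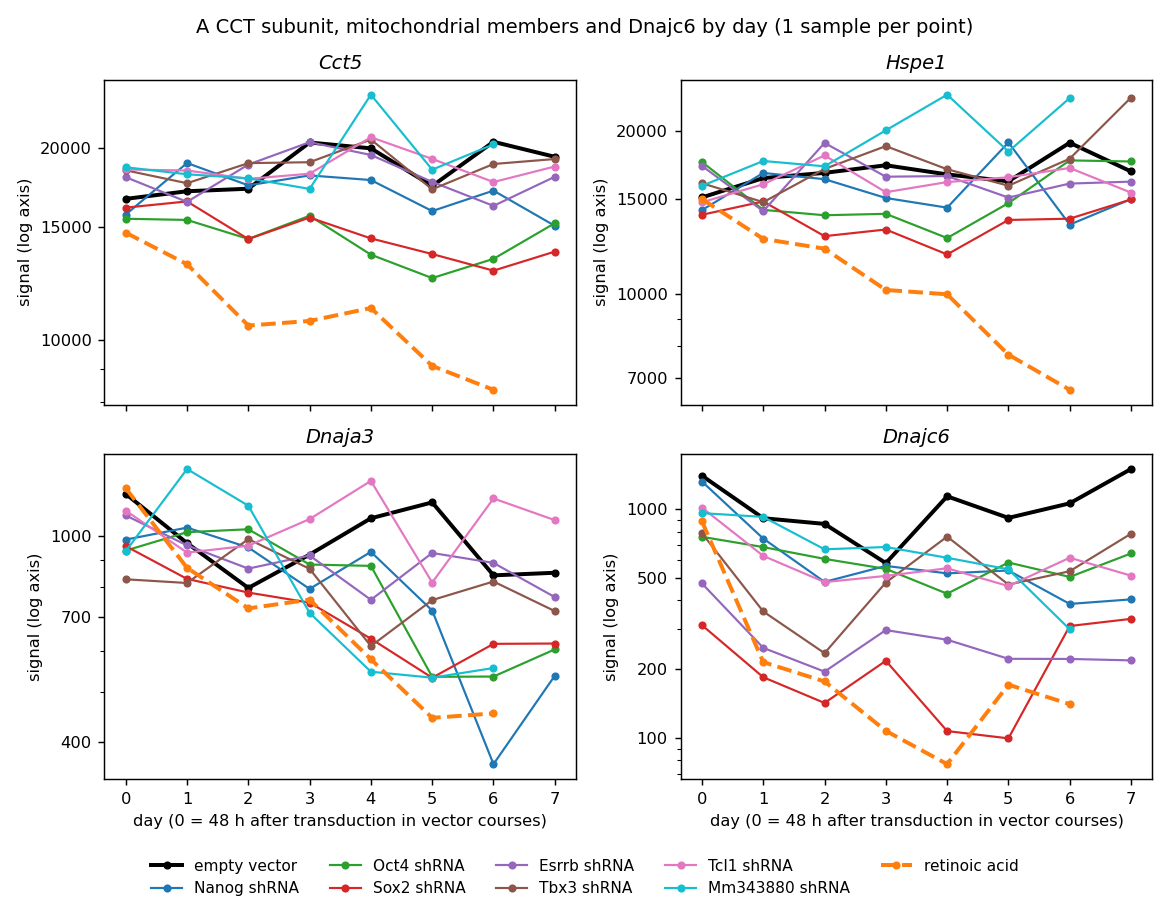
Signal (log axis) of the CCT subunit Cct5, the mitochondrial members Hspe1 and Dnaja3, and Dnajc6 by day in the 9 courses, 1 sample per point. Cct5, Hspe1 and Dnajc6 end lowest with retinoic acid, at 8358, 6649 and 141 on day 6. The Sox2 course starts low for Dnajc6, at 312 on day 0 against 1403 with the empty vector.

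The second question was which members changed within a course, from days 0 and 1 to days 4 to 6, without use of the empty vector. With the empty vector 0 of 73 members rose and 1 fell (0.536% and 0.268% of all genes), and at an unadjusted p under 0.05 in limma 1 rose and 8 fell. In the Nanog course 6 rose and 3 fell (6.35% and 4.53% of all genes), in the Oct4 course 6 and 5 (4.35% and 4.05%), and in the Sox2 course 6 and 3 (4.53% and 3.20%). The Esrrb course had 6 and 1 (5.04% and 1.63%), the Tbx3 course 3 and 0 (3.70% and 1.04%, with 5 falls at an unadjusted p under 0.05), the Tcl1 course 1 and 0 (1.72% and 0.556%, with 3 such falls) and the Mm343880 course 6 and 5 (5.65% and 3.59%). With retinoic acid 8 rose and 22 fell, against 18.6% and 14.9% of all genes. Cryab rose within all 7 shRNA courses and with retinoic acid, by 1.67 to 3.39. Hspb2 rose within 6 shRNA courses, with the Esrrb course at 1.98 ± 0.26 (adjusted p = 3.6e-07), and Hspb8 within 4, with the Esrrb course at 1.30 ± 0.25 (adjusted p = 0.00036). Hspa1b changed by 2.36 ± 0.26 (adjusted p = 3.3e-09) in the Nanog course, 1.52 ± 0.26 (adjusted p = 5.1e-05) in the Sox2 course, 1.36 ± 0.26 (adjusted p = 0.00028) in the Oct4 course and 0.85 ± 0.26 (adjusted p = 0.034) in the Esrrb course. With retinoic acid 7 of 8 CCT subunits, 5 of 7 mitochondrial and 4 of 10 cytosolic members fell, while 3 of 12 ER members rose and none fell. After quantile normalization 5 CCT subunits and 4 mitochondrial members fell there. Without day 0 the number of members called dropped to 16 with retinoic acid, 2 in the Esrrb course, 1 each in the Nanog, Sox2 and Mm343880 courses and 0 in the empty vector, Oct4, Tbx3 and Tcl1 courses. In that setting the early level still covered day 0, so the curves of all courses were extended to day 0 by construction. Without day 6 the number called was 13 with retinoic acid and 1 in the Mm343880 course.

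The direct contrast of the Nanog, Oct4 and Sox2 courses with the Esrrb, Tbx3 and Tcl1 courses, which uses no empty vector sample, had 16 members higher and 17 lower, against 14.9% and 16.5% of all genes. The higher ones included 4 of 6 small heat shock proteins, among them Cryab at 0.67 ± 0.22 (adjusted p = 0.018) and Hspb2 at 0.55 ± 0.13 (adjusted p = 0.0012), 4 of 10 cytosolic Hsp70, Hsp110 and Hsp90 members and 3 of 12 ER members. The lower ones included 7 of 8 CCT subunits, 3 of 7 mitochondrial members and 3 cytosolic members, Hspa8 at -0.29 ± 0.07 (adjusted p = 0.0019), Hspa4 at -0.28 ± 0.10 (adjusted p = 0.021) and Hspa14 at -0.24 ± 0.08 (adjusted p = 0.015). Quantile normalization turned the split to 17 higher and 11 lower, with 5 higher and 0 lower in the cytosolic group and 1 mitochondrial member lower, and without day 5 the count called was 19. Without day 5 the Cryab and Hspb2 differences did not pass (adjusted p = 0.065 and 0.1), and that of Hspa8 did not pass after quantile normalization (adjusted p = 0.48).

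Genes that work with the members were taken from 4 lists, and the examples were chosen after their values were seen. All-gene shares for comparison are those of the late differences above, 27.5% higher and 23.5% lower with retinoic acid. Of 23 tested genes for cytosolic co-chaperones and regulators of the heat shock response, Hsf1 itself not among them, 10 fell and 5 rose with retinoic acid, and 8 fell in the Sox2 course, 6 in the Oct4 course and 5 in the Nanog course with no rise. The Mm343880 course had 6 falls and 2 rises, the Tbx3 course 2 falls and 1 rise, the Esrrb course 3 rises and no fall, and the Tcl1 course no call. Stip1, which links Hsp70 to Hsp90, fell with retinoic acid, at -1.13 ± 0.10 (adjusted p = 9.2e-13), and in the Sox2 course, at -0.48 ± 0.10 (adjusted p = 0.00027), as did Fkbp4, a co-chaperone of steroid receptors, with -1.14 ± 0.13 (adjusted p = 7.8e-10) and -0.89 ± 0.13 (adjusted p = 1.0e-06). Chordc1, an Hsp90 partner, rose with retinoic acid by 1.28 ± 0.23 (adjusted p = 8.4e-06). Of 23 tested genes for ER folding and the unfolded protein response, 8 rose and 5 fell with retinoic acid, shares near those of all genes, and the shRNA courses had 1 to 5 rises and 0 to 3 falls. Pdia3, a disulfide isomerase, rose by 1.52 ± 0.20 (adjusted p = 9.9e-09) and Sel1l, of ER-associated degradation, by 1.43 ± 0.13 (adjusted p = 8.0e-13), while Sdf2l1, which associates with Hspa5, fell, at -1.20 ± 0.16 (adjusted p = 3.4e-08) and Xbp1, a transcription factor of the unfolded protein response, at -0.42 ± 0.13 (adjusted p = 0.0063). Of 11 mitochondrial partners and proteases 6 fell and none rose with retinoic acid, among them Trap1, the mitochondrial Hsp90, at -1.62 ± 0.13 (adjusted p = 1.3e-14) and Grpel1, the nucleotide exchange factor of Hspa9, at -1.33 ± 0.12 (adjusted p = 6.0e-13). The shRNA courses had 0 to 4 falls and 0 to 1 rises among them. Of 14 prefoldin subunits and CCT partners 7 fell and 2 rose with retinoic acid, the shRNA courses had 0 to 2 falls and 0 to 3 rises, and Pfdn2 fell in the Nanog, Oct4 and Sox2 courses, at -0.44 ± 0.12 (adjusted p = 0.0058), -0.38 ± 0.12 (adjusted p = 0.02) and -0.61 ± 0.12 (adjusted p = 0.00011).

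The 8 members without a test were Cct6b, Dnaja4, Dnajb3, Dnajb7, Hspa12b, Hspa1l, Hspb3 and Hspb9, with mean signals of 9.65 to 166. The 15 tested members with no late difference called in a shRNA course or with retinoic acid were Cct8l1, Dnajb13, Dnajb4, Dnajc24, Dnajc27, Dnajc28, Dnajc5b, Dnajc5g, Dnajc7, Hspa14, Hspa2, Hspa4, Hspb6, Hspb7 and Tcp1, listed after their values were seen. Of the 73 tested members 46 had another probe set, 95 in all. In comparisons where the main probe set was called, the other was called the same way 99 times, had the same sign without a call 107 times, the other sign without a call 27 times and was called the other way 2 times, for Cct4 and Dnajb1 with retinoic acid.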

How the data were processed

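RNA of 70 samples was hybridised to 140 arrays, MOE430A and MOE430B. The deposited values are MAS5 signal intensities on a linear scale, per the submitters' processing notes, with no version given. Tested on the files, the 2% trimmed mean of the probe sets shared by both array types was 2500 on every array to within 0.01 of a unit, so the authors' scaling was kept. Probe sets were named from the platform annotation, where 20380 of 22626 on A and 14661 of 22511 on B had 1 gene, 691 and 245 several and 1555 and 7605 none.

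Signals were set to log2(signal + pseudocount), the pseudocount being each table's 20th percentile (63.1 on A, 21.8 on B), so fold changes of dim genes are understated. Genes above the table median (283.3 on A, 89.2 on B) on at least 3 arrays were fitted in limma 3.58.1 (R 4.3.3), with a natural cubic spline of day (3 degrees of freedom) in each course and a moderated test with an intensity trend. Both tables were fitted separately and p-values adjusted together by Benjamini-Hochberg. Contrasts, two-sided, were the late level (days 4 to 6) against the empty vector, the late level against days 0 and 1, the 7 shRNA courses among each other, and the Nanog, Oct4 and Sox2 courses against the Esrrb, Tbx3 and Tcl1 courses. The number of arrays limits the precision. No pair of arrays correlated above 0.971. In simulated data for the Nanog course (14558 genes), 100 genes changed by 1 and 100 by 2 on the log2 scale. For the late difference 57 and 98 of them were recovered, with 7 false calls. For the change within the course 43 and 88 were recovered, with 5 false calls. Noise was drawn independently for each sample, so the simulation held no offset between cultures and no correlation between days. Errors from having 1 culture per course are not covered by these counts.

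Named members are up to 5 rises and 5 falls per comparison among those that passed with that sign on days 4, 5 and 6, plus 19 tested members always named. The members and lists were chosen with earlier results of these data known, and the members described at length after their values were seen. The Dppa4 course is not analysed here. Alternatives were other pseudocounts, no filter, quantile normalization, the mean of a gene's probe sets, no spline, day as a block, only both courses compared in the fit, and leaving out each day.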

Additional observations from a re-analysis of the deposited data

Results flagged for a closer look

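Of 180 groups, each the signals of 1 described member in 1 course, 12 held a sample far from the others by Dixon's criterion, which by chance flags about 1 in 20 groups. Day 0 stood above the other days for Dnaja1 in the Oct4 course (signal 4471, next 2959), Hsp90b1 in the Oct4 course (3669, next 2279.5) and Dnajc6 in the Esrrb (474), Tcl1 (1017) and retinoic acid (886) courses. Day 0 stood below the other days for Dnajb2 in the Nanog course (48.3), Dnajc3 with retinoic acid (518) and Hsp90b1 with retinoic acid (3308). Day 1 was high for Dnaja1 with retinoic acid (8738). Day 2 of the Esrrb course was low for Hsp90aa1 (6244) and Hsp90b1 (998). Day 5 was low for Dnajb2 with the empty vector (87.0, next 217).

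For 14 described members the late level differed between the Nanog, Oct4 and Sox2 courses and the Esrrb, Tbx3 and Tcl1 courses by limma's test of that difference. It was higher in the former, on the log2 scale, for Hspa1a (1.34), Hspa1b (1.09), Dnajb2 (0.87), Cryab (0.67), Hspb2 (0.55), Hspb8 (0.43), Dnaja1 (0.42), Dnajc3 (0.33) and Hspb1 (0.18). It was lower for Dnaja3 (-0.45), Cct5 (-0.36), Hspa8 (-0.29), Hspa9 (-0.28) and Hspe1 (-0.18). The calls of Hspa1a, Hspa1b, Dnajb2 and Cct5 held under the alternatives run, and that of each other member named here was lost under at least 1 of them. The Hspa9 difference turned to 0.016 without day 5, and after quantile normalization the adjusted p was 0.48 for Hspa8, 0.28 for Hspa9 and 0.73 for Hspe1.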

How the results depend on the processing

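There was 1 sample per course and day, so the spread between neighbouring days stands in for that between cultures. The labels number days, not replicates, and the same days of all courses were paired by a fit with day as a block over days 4 to 6, which gave 14 members called late in the Nanog course, 8 in Oct4, 15 in Sox2 and 3 in Tbx3. Without the spline late calls numbered 10 (Mm343880), 14 (Nanog), 6 (Oct4), 2 (Tbx3) and 4 (Tcl1), calls in the direct contrast of courses 21, calls among the shRNA courses 26, and changes within a course 0 (empty vector), 3 (Esrrb), 3 (Mm343880), 2 (Oct4), 4 (Sox2) and 0 (Tcl1). The change with the empty vector was called for 0 members with the table median as pseudocount or without the filter, and that in the Tcl1 course for 2 with a pseudocount of 1 or quantile normalization. Leaving out 1 day gave late calls of 15 to 22 (Nanog), 8 to 19 (Oct4), 17 to 26 (Sox2), 5 to 6 (Esrrb), 2 to 10 (Tbx3), 5 to 11 (Tcl1), 3 to 18 (Mm343880) and 21 to 45 (retinoic acid), 19 to 34 in the direct contrast and 32 to 46 among the shRNA courses. For changes within a course the ranges were 0 to 7 (empty vector), 1 to 11 (Nanog), 0 to 11 (Oct4), 1 to 12 (Sox2), 2 to 7 (Esrrb), 0 to 4 (Tbx3), 0 to 3 (Tcl1), 1 to 12 (Mm343880) and 13 to 33 (retinoic acid). Without day 6 the curves of the Mm343880 and retinoic acid courses end at day 5 and are extended to day 6 by construction. Without day 0 the curves of all courses start at day 1 and are extended to day 0 for the change within a course. Signs turned for Cct8 and Hspa9 in the direct contrast without day 5 (0.01 and 0.016, down to -0.62 and -0.43 without day 6), for the changes of Dnajc7 (0.015, and -1.32 without day 0) and Hspe1 (-0.023, and 0.52 without day 5) and the late difference of Hspe1 (-0.023, and 0.41 without day 5) in the Mm343880 course without day 6, and with retinoic acid for Dnajb1 and Cct4 with averaged probe sets (0.0068 and 0.12), Dnajb5 without day 5 (0.13) and, after quantile normalization, Hspa8 (0.45) and Tcp1 (0.33); beyond the shorter course and the averaging themselves, the cause was not tested. The samples of day 6 in the Sox2 and Nanog courses were left out in settings chosen after seeing the data; without the former 2 members changed in each of the Tcl1 and empty vector courses. Of the settings run for named members, 6362 kept direction and call. With the sign kept, 547 lost the call and 64 gained one. The sign turned in 253 with no call before or after and in 8 with a call in at least 1 of both fits.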
